A study of Mus musculus with 54 samples.

Results

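Naive CD4+ T cells lacking the adaptor LAT were compared with WT cells after 4 h of stimulation through the TCR and CD28. The comparison used the 3 Lat-/- and the 3 WT samples that the labels place at 4 h, 6 of the 54 samples of the series. Both groups were sorted by flow cytometry from the pooled lymph nodes and spleens of young adult Lat fl-dtr maT-Cre mice on the C57BL/6 background, as cells with (WT) or without (Lat-/-) the human diphtheria toxin receptor (DTR). Because both groups came from such mice, the WT cells also carried the floxed Lat allele, which expresses human DTR as long as it is intact, and had matured in animals with the maT-Cre transgene. The sort therefore took cells in which the allele had recombined and cells in which it had not, and not cells of separate strains. All 6 samples were exposed to plate-bound anti-CD3 at 3 µg/ml and soluble anti-CD28 at 1 µg/ml. Samples of the same genotypes without stimulation (0 h) and after 20 h of it, 3 in each condition, serve below as reference. The labels call the samples biological replicates, and whether same-numbered samples shared mice or a day is not given in the sources used here.

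LAT is a membrane adaptor of T cells. Once the TCR is engaged, the kinase ZAP70 phosphorylates LAT, which then gathers PLC-gamma1, GRB2 with the Ras activator SOS1, GADS, and SLP-76 into a signalosome. This assembly feeds the calcium and NFAT pathway, the Ras and ERK pathway with its AP-1 and EGR factors, and PKC-theta and NF-kappaB, while CD28 adds signals through PI3K. Within hours these pathways normally switch on immediate early factors, cytokines, and genes of growth, and genes that keep naive T cells quiescent are turned off.

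Messenger RNA was sequenced, and the values deposited by the authors are raw read counts per gene, without normalization. The 6 libraries at 4 h held from 17784644 to 28501095 counts. Expression is given below as CPM (counts relative to the library total, corrected by TMM factors), which allows a gene to be compared between samples but not with other genes. The WT replicate 3 stood apart from the other WT samples at 4 h: the chi-square per degree of freedom of its counts was 59.6 and 69.4 against WT replicates 1 and 2, which differed from each other by 15.1, and the Lat-/- replicates differed by 21.7 to 46.0. Mitochondrial transcripts took 0.983% of its counts, and 1.94% to 3.05% in the other 5 libraries. All 9 defining transcripts of CD4+ T cells on the marker list (such as Cd3e, Cd4, and Trac) were detected, with a summed level of 7438 to 8976 CPM in WT and 10421 to 11928 CPM in Lat-/- samples.

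Lat transcripts were counted first, as a check on the labels. Lat lies on the minus strand of chromosome 7 (chr7:126363824-126369570, GRCm38), and its reads stood at 314, 351, and 262 CPM in WT cells and 6.79, 5.69, and 11.3 CPM in Lat-/- cells. The groups did not overlap, with a log2 fold change of -5.29 ± 0.27 (SE) and an adjusted p of 2.3e-10 by the quasi-likelihood test of edgeR, adjusted after Benjamini and Hochberg as are all p values given here. Among the genes tested within 100 kb of Lat, the noncoding gene Gm30928 was the only one called, with a log2 fold change of 2.98 ± 0.31 (adjusted p = 3.8e-07) and 80 or fewer reads in each library at 4 h. Reads counted as Hbegf, which encodes the ligand whose human precursor is the DTR itself, stood at 41.2, 36.0, and 30.8 CPM in WT cells and 0.497, 0.235, and 0.884 CPM in Lat-/- cells. At 0 h the log2 fold change was -5.88 ± 0.35. The sort was made on that receptor, and reads of the human sequence and of the mouse gene cannot be told apart in these counts, so the value is not read as a result.

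A gene was called when its fold change exceeded 2 at an adjusted p under 0.05. Of 27780 genes with at least 1 read in the LAT experiment, 1532 were higher (5.51%) and 1730 lower (6.23%) in Lat-/- than in WT cells at 4 h. In that fit the spread of single genes was drawn wholly to the trend over all genes, so that a gene with discordant replicates received the error of an average gene. Values of single genes and of gene lists below therefore come from the same model fitted to the 13928 genes that passed edgeR's filter on low counts (filterByExpr), in which 1484 genes were higher (10.7%) and 1671 lower (12.0%), with a median log2 fold change of 0.03. Counts of list members below are read against these last shares, and where a list lies near them its count is no result about the list. The 2 fits shared 2999 calls. Protein-coding genes made up 1263 of the genes that were higher and 1409 of those that were lower. CPM did not overlap between the groups for 1400 of the genes called higher, for 1635 of those called lower, and for 4862 of the 10773 genes that were not called.

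The WT sample nearest to the Lat-/- samples was replicate 3 for 80.7% of the genes called higher and 77.6% of those called lower. Leaving that library out gave 2094 genes higher and 1731 lower. Leaving out the libraries numbered 3 of both genotypes at 0 h, 4 h, and 20 h gave 1807 and 1744. Scaling by library totals in place of TMM factors moved the median of all genes by 0.13 on the log2 scale, and the share of calls that were higher went from 47.0% to 56.9%. In bulk samples such as these, fewer cells of a type and less RNA per cell cannot be told apart.

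The first question was how much of the early response the Lat-/- cells made. Genes induced or repressed by 4 h of the same stimulus were taken from the WT cells of the CD5/CD6 experiment of the series, which shares no library with the groups compared here, and the score used those with at least 1 read in the LAT experiment, 2655 induced and 3433 repressed genes. The mean of the induced genes was 4.17 on the log2 CPM scale in WT and 2.95 in Lat-/- cells at 4 h, against 2.47 and 2.37 at 0 h. Repressed genes averaged 1.14 in WT and 1.83 in Lat-/- cells at 4 h, against 2.44 and 2.40 at 0 h. Expressed as the difference between both means and relative to the average rise of the WT cells, the rise was 109%, 108%, and 83.7% in the WT samples and 41.3%, 38.6%, and 35.2% in the Lat-/- samples. The Lat-/- cells thus averaged 38.4% ± 3.05 (SD, n = 3) of the WT rise (100% ± 14.1), and the groups did not overlap. The score is a description and carries no p. Restricted to the 500 genes of largest fold in each direction, the average was 52.0%.

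**Figure D1:**
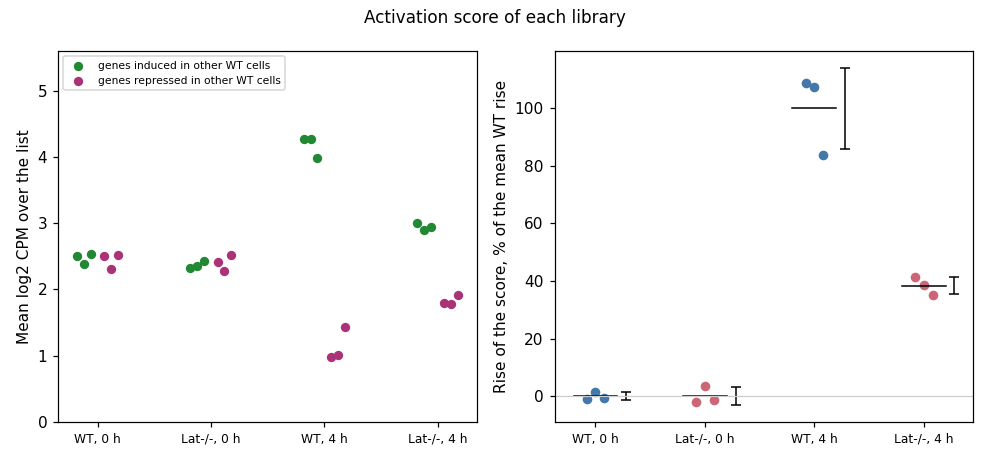
Early activation response by library. Left, mean log2 CPM (y axis) of the 2655 genes induced and 3433 genes repressed by 4 h in the independent WT samples, for each WT (blue) and Lat-/- (red) library at 0 h and 4 h. Right, the rise of each WT (blue) and Lat-/- (red) library as a percentage of the mean WT rise, with bars at the mean and SD (n = 3). The Lat-/- libraries lie between 35.2% and 41.3% at 4 h and the WT libraries between 83.7% and 109%.

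In all, 2661 genes were induced and 3587 repressed in those WT cells. Of the 2343 induced genes that passed the filter on low counts here, 1279 were lower (54.6%) and 13 higher in Lat-/- cells, with a median log2 fold change of -1.16. These made up 76.5% of all genes called lower. Of 2817 repressed genes that passed it, 1082 were higher (38.4%) and 36 lower, with a median of 0.91, and they made up 72.9% of all genes called higher. Relative to unstimulated cells, 958 of the 1671 lower genes (57.3%) had a 4 h mean above the 0 h mean in both genotypes, and for 612 (36.6%) the mean was above it in WT cells and below it in Lat-/- cells. For 798 of the 1484 higher genes (53.8%) the 4 h mean was below the 0 h mean in both genotypes, and for 598 (40.3%) it was below in WT and above in Lat-/- cells. These 4 shares describe group means and carry no test.

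**Figure D2:**
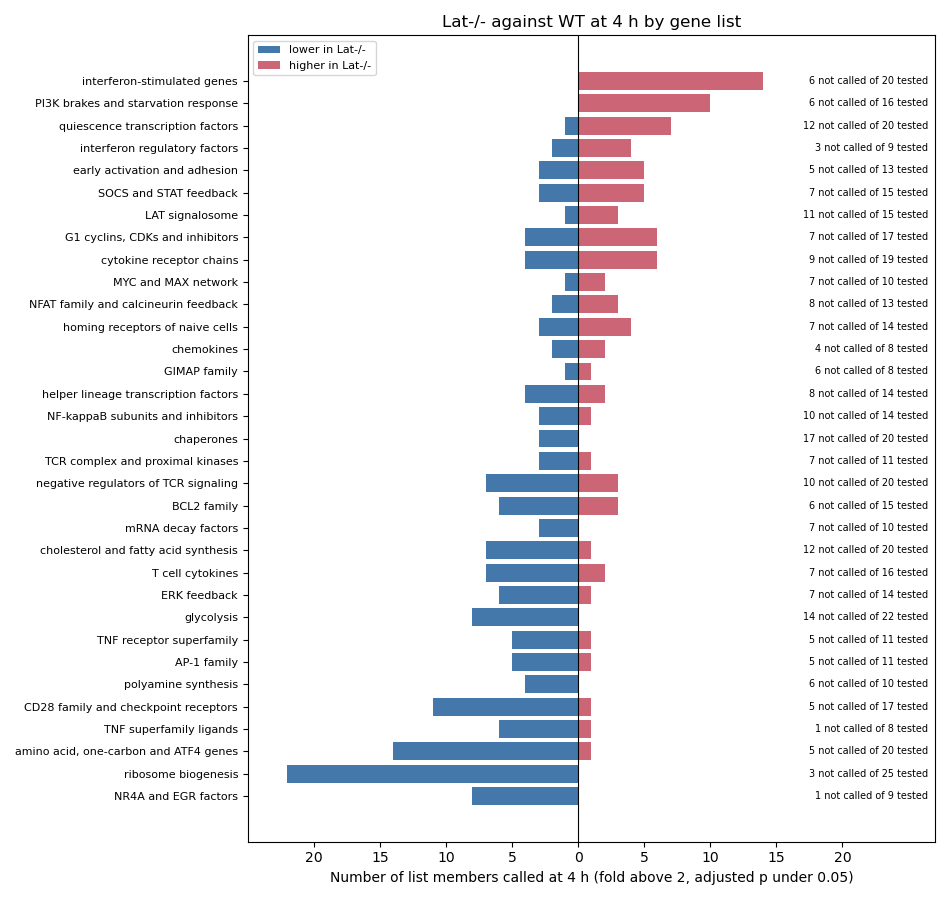
Genes called in Lat-/- against WT cells at 4 h in each of 33 gene lists. Bars to the left count genes that were lower and bars to the right genes that were higher (x axis, number of genes), and the number at the right of each row counts tested genes that were not called. Ribosome biogenesis (22 of 25 lower) and NR4A and EGR factors (8 of 9 lower) stand at the lower end, and interferon-stimulated genes (14 of 20 higher) at the higher end.

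Immediate early transcription factors of the NR4A and EGR families were lower in Lat-/- cells. NR4A proteins are orphan nuclear receptors, the EGR proteins are zinc finger factors, and the transcription of both follows TCR signal strength. Of 9 genes tested 8 were lower and 0 higher, with a median log2 fold change of -2.67. Nr4a1, which encodes NUR77, stood at 8539, 8646, and 6426 CPM in WT cells and 1259, 1002, and 1336 CPM in Lat-/- cells. Every Lat-/- sample lay below every WT sample, and the log2 fold change was -2.72 ± 0.53 (SE) with an adjusted p of 3.2e-04. Log2 fold changes of single genes are given in this form, with SE and adjusted p, from here on. The Lat-/- level at 4 h was above that of unstimulated Lat-/- cells, which averaged 25.8 CPM. Nr4a3 had 3618, 4205, and 2653 CPM in WT cells and 598, 478, and 568 CPM in Lat-/- cells (-2.68 ± 0.31, adjusted p = 1.2e-06), and unstimulated cells averaged 23.4 and 2.68 CPM. Egr2, a factor that restrains effector functions, had 15.0, 17.9, and 14.8 CPM in WT cells and 2.81, 1.53, and 3.12 CPM in Lat-/- cells (-2.67 ± 0.46, adjusted p = 9.2e-05). Egr3 had 954, 1199, and 1088 CPM in WT cells and 185, 132, and 225 CPM in Lat-/- cells (-2.58 ± 0.30, adjusted p = 1.4e-06), again without overlap. Log2 fold changes were -3.28 for Nr4a2, -2.43 for Egr1, -4.24 for Egr4, and -2.28 for Nab2, which encodes a corepressor of EGR proteins. Nab1, a related corepressor, was not called (-0.39 ± 0.11, adjusted p = 0.0067).

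A part of this difference was already present before stimulation. At 0 h, Nr4a1 (-2.29 ± 0.53), Nr4a3 (-3.13 ± 0.35), Egr1 (-1.71 ± 0.33), Egr3 (-4.64 ± 0.38), and Nab2 (-2.95 ± 0.20) were lower in Lat-/- cells as well, 5 of the 9 genes, against 83 of all 13928 genes (0.596%). Levels at 0 h were low, with Egr3 at 38.0, 23.1, and 34.8 CPM in WT and 1.33, 0.979, and 1.50 CPM in Lat-/- samples. The difference between the 4 h and the 0 h contrast was itself called for Egr3 (2.06 ± 0.47, adjusted p = 0.0027), whose Lat-/- deficit was smaller at 4 h than at 0 h, and for none of the other 8 genes.

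Promoters of 6 genes on which the results turn are printed here and with the interferon genes, so that the letters ahead of their start sites can be seen beside the counts. The sequences are the 250 bases before the start annotated by RefSeq on GRCm38.p6, 5′ to 3′ on the strand of the gene. Capitals mark matches, on either strand, to 3 short motifs: the NFAT core GGAAA, the AP-1 site TGANTCA, and the CRE core TGACG, which CREB and ATF proteins bind.
Nr4a1 (chr15:101266596-101266845, plus strand): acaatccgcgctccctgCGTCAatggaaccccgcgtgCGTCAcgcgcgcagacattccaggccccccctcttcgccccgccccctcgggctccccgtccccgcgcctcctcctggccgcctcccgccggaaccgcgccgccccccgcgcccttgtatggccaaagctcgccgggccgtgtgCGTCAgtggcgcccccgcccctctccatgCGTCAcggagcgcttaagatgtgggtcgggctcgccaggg
Nr4a3 (chr4:48045055-48045304, plus strand): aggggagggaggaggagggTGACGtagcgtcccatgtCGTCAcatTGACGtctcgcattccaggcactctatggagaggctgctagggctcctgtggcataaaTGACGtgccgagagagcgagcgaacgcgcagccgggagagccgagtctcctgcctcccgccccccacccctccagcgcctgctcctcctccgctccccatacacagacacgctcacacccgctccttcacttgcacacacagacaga
Il2 (chr3:37125955-37126204, minus strand): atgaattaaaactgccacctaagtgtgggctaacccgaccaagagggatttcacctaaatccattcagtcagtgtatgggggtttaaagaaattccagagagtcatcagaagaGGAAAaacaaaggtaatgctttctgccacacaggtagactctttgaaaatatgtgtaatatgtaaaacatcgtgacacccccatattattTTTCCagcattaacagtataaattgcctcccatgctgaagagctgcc

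The Nr4a1 and Nr4a3 promoters each held 4 matches to TGACG and none to GGAAA or TGANTCA, and the Il2 promoter held 2 to GGAAA. Short motifs occur often by themselves. GGAAA lay in 58.8% of all 27025 promoters in the table, in 56.9% of the 1173 matched genes called lower and in 60.5% of the 1074 matched genes called higher. TGANTCA lay in 7.82% of all promoters and in 5.19% of the matched genes that were tested. Its share was 5.46% in those called lower and 6.33% in those called higher. TGACG lay in 19.8% of all promoters, in 31.4% of the 9618 matched genes that were tested, in 34.3% of those called lower, and in 24.5% of those called higher. These matches describe letters in a short window and say nothing on binding in these cells.

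**Figure D3:**
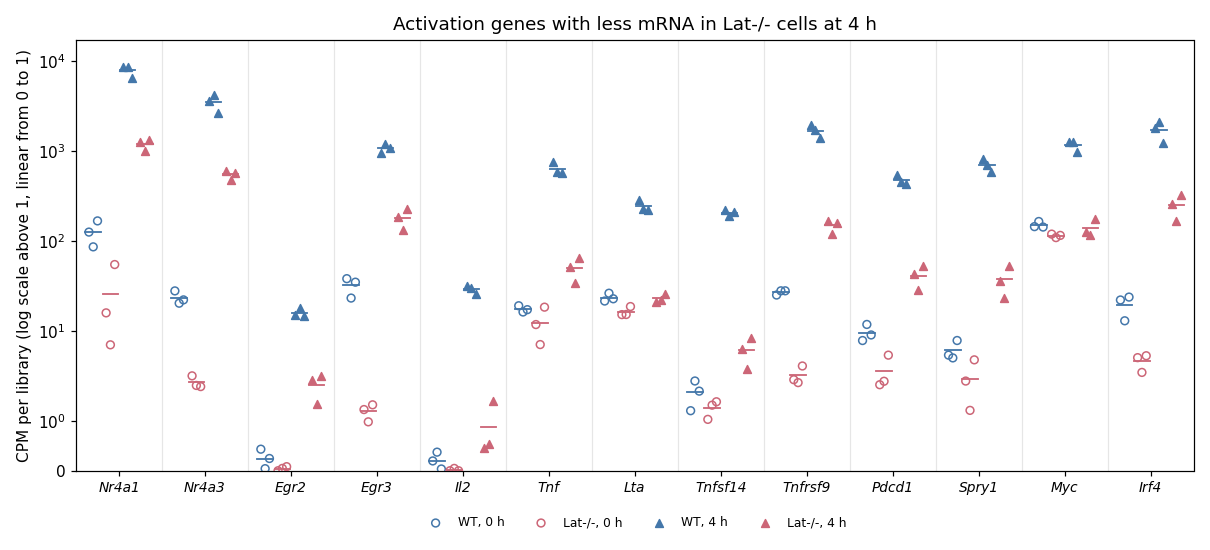
CPM (y axis, logarithmic above 1 and linear from 0 to 1) of 13 genes that were lower in Lat-/- cells at 4 h. Each point is 1 library, open circles at 0 h and triangles at 4 h, WT in blue and Lat-/- in red, and bars are means of 3 libraries. Il2 at 4 h lies between 25.5 and 31.4 CPM in WT and between 0.455 and 1.66 CPM in Lat-/- libraries, and Nr4a1 stays above its 0 h level in both genotypes.

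Among the factors that act downstream of ERK, JNK, calcium, and PKC-theta, the differences were uneven. Of 11 AP-1 genes 5 were lower and 1 higher. Fosl1 had 5.33, 4.90, and 5.02 CPM in WT cells and 0.414, 0.0587, and 0.624 CPM in Lat-/- cells (-3.75 ± 0.74, adjusted p = 5.1e-04), and Fos had 147, 141, and 163 CPM in WT cells and 32.5, 26.3, and 78.6 CPM in Lat-/- cells (-1.72 ± 0.36, adjusted p = 7.0e-04). Neither overlapped between the groups. Fosl2 (-1.57), Atf3 (-1.50), and Maff (-1.19) were lower as well, whereas Junb (-0.99 ± 0.30, adjusted p = 0.012) and Batf (0.89 ± 0.19, adjusted p = 7.7e-04) were not called. Jun was the exception in direction with 92.5, 77.8, and 58.7 CPM in WT cells and 384, 164, and 93.7 CPM in Lat-/- cells (1.49 ± 0.44, adjusted p = 0.0093), but without the Lat-/- replicate 1 the log2 fold change was 0.76 with an adjusted p of 0.13.

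In the NF-kappaB list 3 of 14 genes were lower and 1 higher. Rel, which encodes the subunit c-Rel, had 900.4, 1124, and 746 CPM in WT cells and 238, 184, and 269 CPM in Lat-/- cells (-2.01 ± 0.20, adjusted p = 3.1e-07). Nfkb1 (-1.77) and Nfkbid (-2.53), whose product is a nuclear regulator of NF-kappaB, were lower without overlap. Bcl3, a nuclear IkappaB protein, was higher (1.21 ± 0.22, adjusted p = 1.7e-04). The inhibitor genes Nfkbia (0.11 ± 0.17, adjusted p = 0.64) and Nfkbie (-0.10 ± 0.12, adjusted p = 0.52) did not pass the test and their samples overlapped. Of 13 genes of the NFAT pathway, 2 were lower, near the 12.0% of all tested genes: Nfatc1 at 1175, 1343, and 892 CPM in WT cells and 293, 232, and 279 CPM in Lat-/- cells (-2.09 ± 0.17, adjusted p = 2.5e-08) and the calcium channel gene Orai1 (-2.03 ± 0.15, adjusted p = 1.2e-08). The other 3 called genes were higher, namely Nfatc2 (1.07), Nfatc3 (1.13), and the calcium sensor gene Stim1 (1.03), whose call was lost without WT replicate 1 (0.89) or WT replicate 2 (0.99). Rcan1, whose product binds calcineurin, was not called (-0.09 ± 0.14, adjusted p = 0.62).

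Feedback inhibitors of the ERK pathway were lower in 6 of 14 cases and higher in 1. Spry1, which encodes a Sprouty protein that restrains Ras signaling, had 812, 706, and 579 CPM in WT cells and 35.6, 23.1, and 53.3 CPM in Lat-/- cells (-4.23 ± 0.53, adjusted p = 3.2e-06). Dusp2 (-2.52), Dusp4 (-2.44), and Dusp6 (-1.36), encoding phosphatases of MAP kinases, and Spred1 (-2.29) and Spry2 (-1.93) were lower too, each without overlap of CPM. The call of Spry2 was lost without Lat-/- replicate 2 (-1.53), Lat-/- replicate 3 (-1.97), WT replicate 1 (-1.72), or WT replicate 2 (-1.73), where adjusted p lay between 0.055 and 0.096. Dusp10, whose product acts mainly on JNK and p38, was higher at 68.6, 69.9, and 98.3 CPM in WT cells and 260.1, 302, and 244 CPM in Lat-/- cells (1.77 ± 0.14, adjusted p = 1.3e-08). Dusp1 did not pass the test (-0.16 ± 0.31, adjusted p = 0.7).

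Several cytokine genes were barely detected in Lat-/- cells. Of 16 tested, 7 were lower and 2 higher. Il2, the growth factor of T cells, had 31.4, 30.3, and 25.5 CPM in WT cells and 0.455, 0.528, and 1.66 CPM in Lat-/- cells, without overlap (-5.06 ± 0.56, SE, on the log2 scale, adjusted p = 9.2e-07). Unstimulated cells averaged 0.201 and 0.0155 CPM. Tnf had 756, 583, and 574 CPM in WT cells and 51.1, 33.6, and 64.2 CPM in Lat-/- cells (-3.68 ± 0.45, adjusted p = 2.3e-06), and Lta, its neighbor in the genome that encodes lymphotoxin, had 286, 228, and 221 CPM in WT cells and 21.0, 22.2, and 26.0 CPM in Lat-/- cells (-3.41 ± 0.16, adjusted p = 2.2e-10). Il3 and Csf2, whose products act on myeloid cells, had no read in any Lat-/- sample. Against a floor of 3 counts per library (at most 0.176 CPM), which covers counting error only, Il3 was at least 6.72-fold and Csf2 at least 2.43-fold lower than in WT samples, which averaged 1.18 and 0.427 CPM. Tgfb1 (-1.16) and Lif (-1.04) completed the lower genes. The Lif call was lost without Lat-/- replicate 1 (-0.89), Lat-/- replicate 2 (-0.74), or WT replicate 3 (-0.91).

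Ifng and Il16 were the 2 cytokine genes that were higher. Ifng, the gene of interferon-gamma, had 0.841, 0.962, and 0.792 CPM in WT cells and 13.5, 1.94, and 5.77 CPM in Lat-/- cells (3.04 ± 0.79, adjusted p = 0.0035). Counts were few, from 18 to 21 reads in the WT and 33, 111, and 327 reads in the Lat-/- samples, and the Lat-/- replicate 2 was the nearest to WT. Il16 had 102, 88.1, and 169.8 CPM in WT cells and 404, 451, and 335 CPM in Lat-/- cells (1.72 ± 0.19, adjusted p = 9.2e-07). Il4 (0.90 ± 0.59, adjusted p = 0.22) and Il21 (-0.87 ± 0.53, adjusted p = 0.19), products of helper T cells, did not pass the test. Among 8 chemokine genes 2 were lower and 2 higher. Xcl1 had 266, 211, and 206 CPM in WT cells and 11.4, 6.28, and 15.3 CPM in Lat-/- cells (-4.37 ± 0.60, adjusted p = 9.7e-06) and Ccl4, a chemokine gene of activated T cells, was lower too (-2.59 ± 0.48, adjusted p = 1.8e-04). Cxcl10, a chemokine gene driven by interferons, was higher (2.19 ± 0.53, adjusted p = 0.002). Ccl20 was called higher with few reads (2.08 ± 0.69, adjusted p = 0.017), and the call was lost without Lat-/- replicate 3 (1.24), WT replicate 1 (1.84), or WT replicate 2 (1.72).

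TNF superfamily ligands, with which activated CD4+ T cells signal to other cells, were lower in 6 of 8 cases. Tnfsf14, which encodes LIGHT, had 218, 190.1, and 212 CPM in WT cells and 6.21, 3.76, and 8.43 CPM in Lat-/- cells (-5.07 ± 0.38, adjusted p = 1.2e-08). Cd40lg, the ligand by which T cells help B cells, had 976, 1011, and 873 CPM in WT cells and 158, 144, and 174 CPM in Lat-/- cells (-2.59 ± 0.13, adjusted p = 2.3e-10). Log2 fold changes were -3.72 for Tnfsf11 (RANKL), -2.82 for Tnfsf9 (4-1BBL), -2.54 for Tnfsf8 (CD30L), and -1.95 for Fasl. Tnfsf10, which encodes TRAIL, was higher instead (1.75 ± 0.20, adjusted p = 1.4e-06). Of 11 receptors of the family 5 were lower and 1 higher. Tnfrsf9 (4-1BB) had 1949, 1695, and 1399.7 CPM in WT cells and 167, 119, and 159 CPM in Lat-/- cells (-3.50 ± 0.40, adjusted p = 1.2e-06) and was lower at 0 h too (-3.07 ± 0.43), as was Tnfrsf4 (OX40), with -2.23 at 4 h and -2.26 ± 0.41 at 0 h. Tnfrsf8 (-3.30 ± 1.23, adjusted p = 0.033), Tnfrsf1b (-2.03), and Cd27 (-1.48) were lower, but the Tnfrsf8 call was lost without Lat-/- replicate 1 (-3.01), Lat-/- replicate 2 (-2.82), WT replicate 1 (-2.92), or WT replicate 3 (-3.16), and with DESeq2 (-3.40, adjusted p = 0.065). Tnfrsf18 (GITR) was not called (-0.26 ± 0.12, adjusted p = 0.078).

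Receptors of the CD28 family and other checkpoint receptors were lower in 11 of 17 cases and higher in 1. Pdcd1, which encodes the inhibitory receptor PD-1, had 536, 454, and 425 CPM in WT cells and 42.7, 28.8, and 52.0 CPM in Lat-/- cells (-3.52 ± 0.42, adjusted p = 2.0e-06). Unstimulated cells averaged 9.53 and 3.55 CPM. Cd160 (-3.77), Slamf1 (-3.03), Cd200 (-2.47), Btla (-2.19), Cd83 (-2.07), Pdcd1lg2 (-2.02), Cd274 (PD-L1, -1.61), Lag3 (-1.60), Vsir (-1.57), and Icos (-1.23) were lower, and none of them overlapped between the groups. The Icos call was lost without Lat-/- replicate 2 (-0.97), and that of Lag3 without Lat-/- replicate 1 (-1.26) or WT replicate 3 (-1.51). Ctla4 (-0.30 ± 0.53, adjusted p = 0.67) and Cd28 itself (-0.11 ± 0.20, adjusted p = 0.68) did not pass the test. Cd226, an activating receptor, was higher at 6.54, 8.39, and 15.3 CPM in WT cells and 23.5, 21.4, and 21.9 CPM in Lat-/- cells (1.14 ± 0.22, adjusted p = 3.5e-04), a call lost without WT replicate 1 (0.92). Cd69, the early activation marker that holds cells in lymphoid tissue, had 1728, 1738, and 1399.6 CPM in WT cells and 497, 404, and 396 CPM in Lat-/- cells (-1.91 ± 0.32, adjusted p = 7.0e-05), while Cd44 was not called (0.02 ± 0.19, adjusted p = 0.94).

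Transcripts of the signaling machinery itself moved in both directions. Of 11 genes of the TCR complex and its kinases, Zap70 had 1225, 1082, and 924 CPM in WT cells and 302, 329, and 297 CPM in Lat-/- cells (-1.80 ± 0.15, adjusted p = 3.4e-08), and Fyn (-1.23) and Ptprc (-1.11), which encodes CD45, were lower as well. The Ptprc call was lost without WT replicate 2 (-0.96). Cd247, the zeta chain of the receptor, was higher (1.02 ± 0.17, adjusted p = 7.7e-05), and that call was lost without WT replicate 1 or WT replicate 2 (0.90 each). Lck (-0.46 ± 0.13, adjusted p = 0.0055), Cd3e (-0.20 ± 0.10, adjusted p = 0.11), and Cd3d (0.14 ± 0.16, adjusted p = 0.48) were not called.

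Partners of LAT in the signalosome were higher in 3 of 15 cases and lower in 1, counts near the shares over all tested genes (10.7% and 12.0%). Lcp2, which encodes SLP-76, had 1908, 1858, and 1732 CPM in WT cells and 539, 489, and 507 CPM in Lat-/- cells (-1.84 ± 0.10, adjusted p = 7.4e-10). Grap2, which encodes GADS, the adaptor that joins SLP-76 to LAT, had 144, 176, and 256 CPM in WT cells and 617, 631, and 604 CPM in Lat-/- cells (1.68 ± 0.19, adjusted p = 8.9e-07), so that transcripts of these binding partners differed in opposite directions. Themis (1.71) and Fyb (1.34), whose product is the adaptor ADAP, were higher without overlap. Plcg1 (0.59 ± 0.14, adjusted p = 0.0015), Sos1 (0.71 ± 0.20, adjusted p = 0.0072), Grb2 (0.26 ± 0.10, adjusted p = 0.038), and Vav1 (-0.45 ± 0.10, adjusted p = 9.2e-04) did not pass the fold change threshold.

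Negative regulators of TCR signaling were lower in 7 of 20 cases and higher in 3. Cd5 had 1617, 1687, and 1335 CPM in WT cells and 443, 428, and 345 CPM in Lat-/- cells (-1.93 ± 0.16, adjusted p = 3.4e-08), and Cd6, a related scavenger receptor, had 1018, 1010.4, and 873 CPM in WT cells and 387, 369.8, and 334 CPM in Lat-/- cells (-1.41 ± 0.14, adjusted p = 2.2e-07). Both were lower before stimulation, with log2 fold changes of -1.30 ± 0.16 and -1.06 ± 0.14 at 0 h. Ubash3b, which encodes the phosphatase STS-1, had 758, 748, and 567 CPM in WT cells and 77.5, 61.0, and 79.6 CPM in Lat-/- cells (-3.25 ± 0.19, adjusted p = 9.6e-10). Its relative Ubash3a was higher (1.09 ± 0.13, adjusted p = 1.3e-06), a call lost without Lat-/- replicate 2 (0.95). Sla (-2.32), Sh2b3 (-1.81), Ptpn22 (-1.69), and Ptpn6 (SHP-1, -1.44) were lower, and the adaptor genes Sit1 (1.85 ± 0.16, adjusted p = 5.7e-08) and Sla2 (1.47) were higher. The ubiquitin ligase genes Cblb (-0.36 ± 0.17, adjusted p = 0.098) and Cbl (-0.06 ± 0.25, adjusted p = 0.86) were not called.

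Myc, a factor that drives the growth of activated T cells, had 1261, 1244, and 975 CPM in WT cells and 126, 116, and 175 CPM in Lat-/- cells, without overlap (-3.07 ± 0.18, adjusted p = 7.6e-10). Of 10 genes of the MYC network it was the only one that was lower. Its antagonists Mxi1 (1.22) and Mxd4 (1.10) were higher, though the Mxd4 call was lost without WT replicate 1 (0.93) or WT replicate 2 (0.96). Ribosome biogenesis was the list with the highest share of lower genes after the NR4A and EGR factors, 22 of 25 with a median of -1.86. Polr1b, a subunit of RNA polymerase I, had 311, 339, and 216 CPM in WT cells and 54.9, 47.4, and 56.3 CPM in Lat-/- cells (-2.45 ± 0.18, adjusted p = 1.0e-08). Nop2 (-2.09), Dkc1 (-2.07), and Fbl (-1.42), which modify ribosomal RNA, were lower too, and Npm1 (-0.95 ± 0.15, adjusted p = 4.2e-05), Polr1a (-0.90 ± 0.15, adjusted p = 8.5e-05), and Wdr12 (-0.99 ± 0.11, adjusted p = 8.0e-07) remained within the fold change threshold.

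Amino acid and one-carbon metabolism had 14 of 20 genes lower and 1 higher, with a median of -1.37. Shmt1, which feeds serine into the folate cycle, had 475, 437, and 353 CPM in WT cells and 36.6, 31.2, and 36.0 CPM in Lat-/- cells (-3.61 ± 0.37, adjusted p = 3.2e-07). Asns (-2.91), which makes asparagine, and the transporters Slc7a1 (-2.33), Slc1a5 (-2.25), and Slc7a5 (-2.19) were lower without overlap. Trib3, an inhibitor of ATF4, was higher (1.41 ± 0.31, adjusted p = 1.0e-03). Srm, which makes spermidine, had 544, 478, and 409 CPM in WT cells and 60.8, 65.3, and 61.5 CPM in Lat-/- cells (-2.93 ± 0.26, adjusted p = 6.9e-08), 1 of 4 lower genes among 10 of polyamine metabolism. In glycolysis 8 of 22 genes were lower and none was higher. Hk2 (hexokinase) had 37.9, 40.7, and 20.5 CPM in WT cells and 2.40, 2.99, and 3.17 CPM in Lat-/- cells (-3.54 ± 0.48, adjusted p = 7.9e-06), and the lactate transporter Slc16a1 (-2.39) and Ldha (-1.33) were lower, whereas the glucose transporter Slc2a1 had 119, 120.1, and 99.1 CPM in WT cells and 53.7, 55.5, and 61.3 CPM in Lat-/- cells (-0.99 ± 0.10, adjusted p = 4.9e-07), just within the threshold. Reads of Gapdh, Pgam1, and Pgk1, also among these 8, can be divided between the genes and their near-identical copies. Of 20 genes of cholesterol and fatty acid synthesis 7 were lower, such as Fasn (-1.77) and Sqle (-1.36), and 1 was higher, Scd2 (1.14 ± 0.21, adjusted p = 2.3e-04), a call lost without Lat-/- replicate 2 or WT replicate 1 (0.98 each).

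Genes of the entry into the cell cycle were called in both directions, with 6 of 17 higher and 4 lower. Ccnd2 had 1615, 1920.2, and 1533 CPM in WT cells and 407, 290.0, and 419 CPM in Lat-/- cells (-2.18 ± 0.17, adjusted p = 1.3e-08), and Cdk6 (-2.00) and Cdk4 (-1.37), kinases that D cyclins activate, were lower as well. Of the CDK inhibitors, Cdkn1b (p27), which is kept high in resting T cells, was higher at 74.3, 71.4, and 173 CPM in WT cells and 399, 359, and 383 CPM in Lat-/- cells (1.84 ± 0.24, adjusted p = 6.5e-06), and Cdkn1a (p21), a target of p53 and of activation, was lower at 104, 96.3, and 99.0 CPM in WT cells and 9.60, 7.28, and 13.4 CPM in Lat-/- cells (-3.30 ± 0.24, adjusted p = 7.9e-09). Ccne1 was higher (2.12 ± 0.31, adjusted p = 1.9e-05). In the BCL2 family 6 of 15 genes were lower and 3 higher. The 5 survival genes Bcl2a1d (-2.76), Bcl2a1b (-2.71), Bcl2l1 (-1.91), Bcl2l2 (-1.85), and Bcl2 (-1.52) were lower, though reads of Bcl2a1b and Bcl2a1d can be exchanged between these near-identical copies. The death-promoting gene Bid was lower (-1.71), and 3 others of that kind, Bmf (1.86), Bbc3 (1.31), and Bad (1.21), were higher.

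Interferon-stimulated genes made up the list with the highest share of higher genes. Of 20 tested 14 were higher and 0 lower in Lat-/- cells, with a median log2 fold change of 1.93. Gbp2, a guanylate-binding protein gene, had 63.7, 46.1, and 91.2 CPM in WT cells and 745, 303, and 793 CPM in Lat-/- cells (3.19 ± 0.49, adjusted p = 2.7e-05). Ifit3, which encodes an antiviral protein that binds RNA and has a near-identical copy in mice, had 1.12, 1.42, and 1.32 CPM in WT cells and 13.5, 6.81, and 8.06 CPM in Lat-/- cells (2.88 ± 0.38, adjusted p = 5.7e-06). Usp18, a brake on the receptor of type I interferon, had 2.80, 2.34, and 4.04 CPM in WT cells and 15.5, 11.7, and 20.2 CPM in Lat-/- cells (2.36 ± 0.26, adjusted p = 9.2e-07). None of these overlapped between the groups, and in each the Lat-/- replicate 2 was the lowest of the Lat-/- samples. Log2 fold changes were 2.66 for Rtp4, 2.64 for Ifit1, 2.36 for Xaf1, 2.06 for Zbp1, and 1.96 for Oas2. Mx1 (-0.68 ± 1.30, adjusted p = 0.7), Isg15 (0.64 ± 0.26, adjusted p = 0.049), Ifi27l2a (0.55 ± 0.20, adjusted p = 0.032), and Bst2 (0.80 ± 0.23, adjusted p = 0.0063) were not called.

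Unstimulated cells gave another picture for these genes. At 0 h none of the 20 was called, and Gbp2 averaged 127 CPM in WT and 167 CPM in Lat-/- cells. The 4 h mean of Gbp2 was 67.0 CPM in WT and 613 CPM in Lat-/- cells, and that of Usp18 was 3.06 and 15.8 CPM against 42.2 and 42.2 CPM at 0 h. At 20 h Gbp2 (1.70 ± 0.46), Ifit3 (4.67 ± 0.41), and Usp18 (2.39 ± 0.26) were higher in Lat-/- cells again.

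Irf9, the DNA-binding partner of STAT proteins in type I interferon signaling, had 53.4, 46.6, and 69.9 CPM in WT cells and 277, 148, and 243 CPM in Lat-/- cells (1.97 ± 0.22, adjusted p = 9.2e-07), and Stat2 (1.90) and Irf7 (1.72) were higher without overlap. Irf1, a factor induced by interferon-gamma, had 157, 109, and 165 CPM in WT cells and 1100.4, 483, and 849 CPM in Lat-/- cells (2.49 ± 0.28, adjusted p = 1.0e-06). The receptor genes Ifngr1, at 189, 195, and 402 CPM in WT cells and 981, 961, and 1212 CPM in Lat-/- cells (2.00 ± 0.23, adjusted p = 1.0e-06), and Ifngr2 (1.43) were higher, and the type I receptor genes Ifnar1 (0.81 ± 0.13, adjusted p = 3.7e-05) and Ifnar2 (0.52 ± 0.12, adjusted p = 0.002) were not called. Socs3, a feedback inhibitor of cytokine receptors that signal through JAK kinases, had 15.8, 14.7, and 36.4 CPM in WT cells and 135, 106, and 147 CPM in Lat-/- cells (2.53 ± 0.27, adjusted p = 5.1e-07) and was already higher at 0 h (1.08 ± 0.25), whereas Socs2 (-1.55) and Cish (-1.50), feedback genes of STAT5, were lower. The Socs2 call was lost without Lat-/- replicate 2 (-1.25) or WT replicate 3 (-0.95). Irf4 and Irf8, IRF family members that the TCR induces in T cells, were lower, Irf4 at 1821, 2119.6, and 1234 CPM in WT cells and 258, 165, and 324 CPM in Lat-/- cells (-2.79 ± 0.41, adjusted p = 1.7e-05) and Irf8 with a log2 fold change of -1.87. Counted over the lists, 4 of 9 IRF genes were higher and 2 lower, and 5 of 15 genes of STAT factors and their feedback were higher and 3 lower, or 2 higher without WT replicate 1.

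The promoters of Gbp2, Ifit3, and Irf1 are printed in the same form as those above. Capitals here mark matches on either strand to the ISRE core (GAAA, any 2 bases, and GAAA again), bound by IRF9 with its STAT partners and by other IRF proteins, and to the GAS site TTCNNNGAA, bound by STAT dimers.
Gbp2 (chr3:142620413-142620662, plus strand): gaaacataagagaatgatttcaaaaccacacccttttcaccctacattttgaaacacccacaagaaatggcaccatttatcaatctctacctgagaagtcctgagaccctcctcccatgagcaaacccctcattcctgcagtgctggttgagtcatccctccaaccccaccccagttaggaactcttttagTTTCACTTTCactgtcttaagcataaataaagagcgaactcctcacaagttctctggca
Ifit3 (chr19:34583279-34583528, plus strand): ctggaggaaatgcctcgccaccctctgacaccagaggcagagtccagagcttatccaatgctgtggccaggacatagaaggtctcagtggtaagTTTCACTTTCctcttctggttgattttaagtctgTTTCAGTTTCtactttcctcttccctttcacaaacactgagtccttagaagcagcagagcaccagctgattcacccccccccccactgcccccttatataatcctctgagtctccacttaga
Irf1 (chr11:53769764-53770013, plus strand, the first of 2 starts in the table): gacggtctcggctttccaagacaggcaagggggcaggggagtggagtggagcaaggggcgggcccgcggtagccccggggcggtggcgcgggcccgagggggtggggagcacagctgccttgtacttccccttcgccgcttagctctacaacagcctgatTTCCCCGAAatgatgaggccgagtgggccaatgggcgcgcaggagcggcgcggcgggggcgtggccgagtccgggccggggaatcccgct

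Gbp2 held 1 ISRE core, Ifit3 held 2, and Irf1 held 1 GAS site. The ISRE core lay in 3.46% of all promoters of this length, in 3.20% of the tested genes, in 6.52% of the genes called higher (70 of 1074), in 2.22% of the genes called lower, and in 9 of the 13 interferon-stimulated genes with a promoter in the table. The GAS site lay in 8.13% of all promoters and in 7.11% of the tested genes. Its share was 7.82% in the genes called higher and 7.59% in the genes called lower. As above, a match is a description of the sequence.

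**Figure D4:**
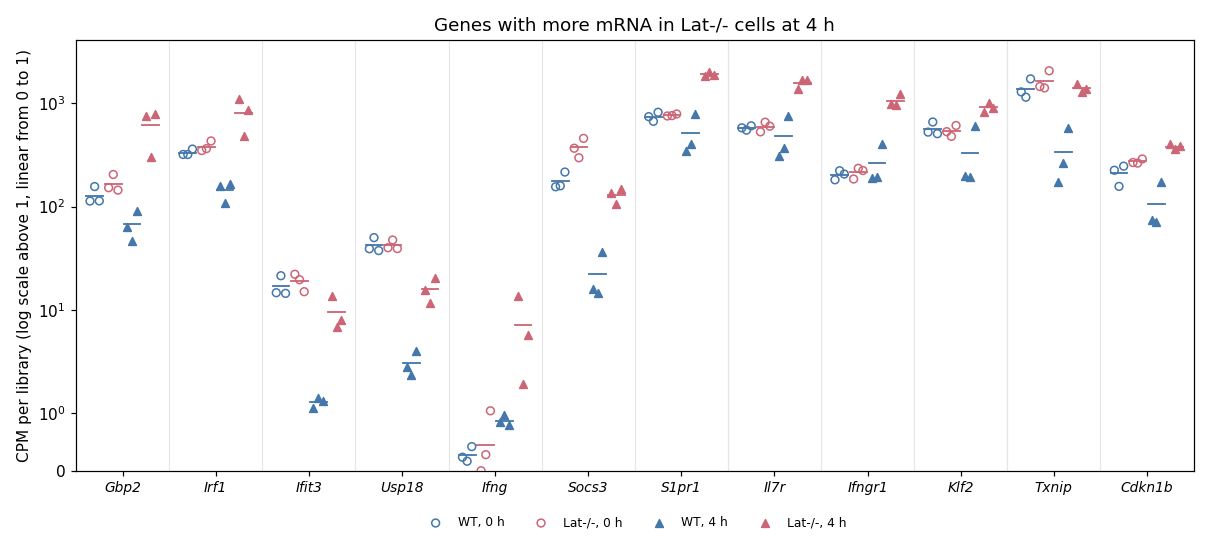
CPM (y axis, logarithmic above 1 and linear from 0 to 1) of 12 genes that were higher in Lat-/- cells at 4 h, drawn as in the plot of the lower genes. Interferon genes such as Gbp2 and Ifit3 stand at the left, and genes of resting cells such as S1pr1, Il7r, and Klf2, whose 4 h levels lie above the 0 h means in all Lat-/- libraries and below them in WT libraries 1 and 2, at the right.

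Genes that mark resting naive T cells were called mainly toward higher values in Lat-/- cells, although most were not called. Of 20 quiescence transcription factors 7 were higher and 1 lower, and 12 were not called, with a median of 0.79, and 6 were higher without WT replicate 1 and 9 without WT replicate 3. Klf2, which maintains the naive state and drives S1pr1, had 198, 192, and 607 CPM in WT cells and 816, 1009, and 899 CPM in Lat-/- cells (1.45 ± 0.30, adjusted p = 5.8e-04). The 0 h means were 563 and 538 CPM, so that WT replicates 1 and 2 lay below the 0 h level at 4 h, and WT replicate 3 and all Lat-/- samples above it. Tcf7 (TCF-1) had 507, 589, and 1091 CPM in WT cells and 1988, 2451, and 2019 CPM in Lat-/- cells (1.56 ± 0.20, adjusted p = 4.3e-06), and Lef1 (1.58), Klf3 (1.86), Ets1 (1.38), Tob1 (1.37), and Klf7 (1.13) were higher as well, the last not without WT replicate 1 (adjusted p = 0.010, but a fold change just under 2). Foxo1, which maintains Klf2 and Il7r, was not called (0.89 ± 0.15, adjusted p = 9.2e-05), nor was Bach2 (0.03 ± 0.19, adjusted p = 0.91). Id3, a target of EGR factors, was lower (-1.06 ± 0.25, adjusted p = 0.0016) and was lower at 0 h (-1.50 ± 0.25). The call at 4 h was lost without Lat-/- replicate 3 (-0.82) or WT replicate 1 (-0.91).

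Brakes of the PI3K pathway and genes of the starvation response, many of them targets of FOXO factors, were higher in 10 of 16 cases and lower in none. Pik3ip1, an inhibitor of PI3K, had 44.5, 43.1, and 105 CPM in WT cells and 188, 221, and 193 CPM in Lat-/- cells (1.64 ± 0.23, adjusted p = 1.2e-05). Txnip, which restrains glucose uptake, had 174, 264, and 578 CPM in WT cells and 1522, 1283, and 1372 CPM in Lat-/- cells (2.04 ± 0.31, adjusted p = 2.9e-05). Tsc22d3 (GILZ, 1.63), Ccng2 (1.55), Irs2 (1.48), and Sesn1 (1.35) were higher, and Tsc1 (0.37 ± 0.19, adjusted p = 0.11) and Ddit4 (0.90 ± 0.26, adjusted p = 0.0081) were not called.

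Of 14 homing receptors 4 were higher, all of them used by circulating naive cells, and 3 were lower. S1pr1, by which T cells leave lymphoid organs, had 344, 402, and 786 CPM in WT cells and 1827, 1999, and 1860.0 CPM in Lat-/- cells (1.89 ± 0.22, adjusted p = 1.2e-06). Its 0 h means were 741 and 765 CPM, and again only WT replicates 1 and 2 of the 6 samples at 4 h lay below them. S1pr4 was higher as well (1.55). Ccr7, which guides T cells into lymph nodes, had 524, 592, and 936 CPM in WT cells and 1324, 1659, and 1304 CPM in Lat-/- cells (1.06 ± 0.18, adjusted p = 1.1e-04). The call of Ccr7 was lost without Lat-/- replicate 2 (0.95), WT replicate 1 (0.92), or WT replicate 2 (0.98). Cxcr3, the receptor of chemokines induced by interferon-gamma, had 90.9, 64.7, and 57.2 CPM in WT cells and 4.43, 1.53, and 5.31 CPM in Lat-/- cells (-4.22 ± 0.48, adjusted p = 1.2e-06). Ccr8 (-3.02) and Ccr4 (-1.36) were lower too. Of 13 genes of early activation and adhesion 5 were higher and 3 lower. Among the integrins, Itgae (-2.39) and Itgb2 (-1.39) were lower, and Itga4 (1.47) and Itgb7 (1.50), which pair in gut homing, were higher.

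Receptors for cytokines were called in both directions, with 6 of 19 higher and 4 lower. Il7r, the receptor that keeps naive T cells alive, had 309.6, 369.8, and 751 CPM in WT cells and 1361, 1659, and 1671 CPM in Lat-/- cells (1.71 ± 0.29, adjusted p = 9.6e-05), and its 0 h means of 576 and 593 CPM lay above WT replicates 1 and 2 and below the other 4 samples. Il18r1 (2.01), Tgfbr2 (1.26), and Il6ra (1.08) were higher, and the Il6ra call was lost without WT replicate 1 (0.96). Il2rb, a chain of the receptors of IL-2 and IL-15, had 220.0, 247, and 187 CPM in WT cells and 73.4, 49.8, and 71.2 CPM in Lat-/- cells (-1.75 ± 0.29, adjusted p = 7.0e-05) and was lower at 0 h (-1.75 ± 0.29). Il12rb1 (-2.17) and Il15ra (-2.05) were lower as well, and so was Il21r (-1.02), whose call was lost without Lat-/- replicate 3 (-0.93), WT replicate 1 (-0.95), or WT replicate 2 (-0.95). Il2rg, the common gamma chain, did not pass the threshold (-0.74 ± 0.19, adjusted p = 0.0038).

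Transcription factors of helper lineages were lower in 4 of 14 cases and higher in 2. Prdm1, which encodes BLIMP-1, was higher at 3.83, 4.40, and 6.15 CPM in WT cells and 15.6, 16.6, and 19.2 CPM in Lat-/- cells (1.83 ± 0.24, adjusted p = 6.5e-06), and Runx3 by 1.61 on the log2 scale. Runx1 was lower (-1.38 ± 0.16, adjusted p = 1.2e-06). Tbx21 (T-bet, -0.90 ± 0.61, adjusted p = 0.24) and Gata3 (0.57 ± 0.12, adjusted p = 5.3e-04) did not pass the threshold. Bcl6, the factor of follicular helper cells, was lower (-1.27 ± 0.19, adjusted p = 1.8e-05). Genes of mRNA decay, several of which limit cytokine transcripts, were lower in 3 of 10 cases, Zfp36l1 (-2.33 ± 0.15, adjusted p = 2.7e-09), Malt1 (-1.85), and Zfp36 (-1.31). Of 8 genes of the GIMAP family of lymphocyte GTPases, Gimap9 was higher (1.23) and Gimap5 lower (-1.45), and without WT replicate 3 the number that were higher was 4.

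Foxp3 and Ikzf2, on the list of helper factors, also mark regulatory T cells, and markers of other cells were therefore summed. The 7 regulatory T cell markers summed to 367 to 387 CPM in WT and 177 to 198 CPM in Lat-/- samples at 4 h, and to 234 to 285 and 104 to 128 CPM at 0 h. Foxp3 had 30.7, 34.3, and 40.9 CPM in WT cells and 5.88, 4.23, and 12.1 CPM in Lat-/- cells (-2.26 ± 0.31, adjusted p = 8.2e-06), and 5 of the 7 were lower at 4 h and 4 at 0 h. Among these genes, the Ikzf2 call was lost without Lat-/- replicate 1 (-1.38) or Lat-/- replicate 2 (-1.17). The 6 markers of gamma delta T cells summed to 16.4 to 22.9 CPM in WT and 6.99 to 11.0 CPM in Lat-/- samples, and 3 were lower, but none without Lat-/- replicate 1 and 1 without WT replicate 1, where the log2 fold change of Trdc was -0.88 and -0.86. Markers of effector or memory T cells, 10 in number, summed to 170 to 201 CPM in WT and 91.0 to 128 CPM in Lat-/- samples at 4 h. Their 0 h sums lay the other way, at 97.6 to 112 CPM in WT and 112 to 185 CPM in Lat-/- samples. Of the 10 at 4 h, Cxcr3 and Bhlhe40 were lower, Il18r1 was higher, and 7 were not called. The median log2 fold change was 0.0008. At 4 h these sums move with genes named above that such cells also express, Cd5, Tnfrsf4, Tnfrsf9, Icos, Pdcd1, Cd200, and Il2rb among them. The part of such cells in those results was not tested.

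Of the remaining markers, those of B cells summed to 18.1 to 20.7 CPM in WT and 6.87 to 11.1 CPM in Lat-/- samples, with the defining genes Ms4a1 and Pax5 at 0 reads. The highest B cell marker alone reached 14.5 CPM, and 6 of the 11 had under 10 reads at 4 h. Of the 6 tested, 1 was lower and 0 higher, with a median log2 fold change of -1.21. Myeloid markers were at 63.9 to 82.0 and 65.9 to 81.2 CPM, with S100a8 and S100a9 at 0 reads. The highest of them alone reached 79.3 CPM, so the sum mainly follows that gene. Of the 5 myeloid markers tested, 2 were lower and 0 higher, with a median log2 fold change of -1.37. Without single libraries, 1 or 2 were lower. The 2 CD8 genes summed to 16.9 to 22.0 and 24.6 to 29.4 CPM, and the erythroid genes to 2.55 CPM or less. The 6 NK cell genes summed to 66.4 to 74.1 and 96.4 to 103 CPM, but the highest of them alone reached 80.7 CPM. Klrd1 was higher (1.56) and the other 5 were not called. Ncr1 averaged 0.337 CPM in WT cells and had no read in any Lat-/- sample. With Ncr1 taken at the floor, the median log2 fold change of the 6 was -0.47. Without the libraries numbered 3, 1 was higher and 3 were lower.

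Several chaperone genes differed more between replicates than between genotypes. Hspa1a, the inducible HSP70, had 117, 77.6, and 2.87 CPM in WT cells and 471, 212, and 3.95 CPM in Lat-/- cells, and at an adjusted p of 0.13 the log2 fold change of 1.80 ± 0.97 did not pass the test. The samples numbered 3 of both genotypes were the lowest and those numbered 1 the highest. Hsph1 ran in the same order with 1310.3, 903, and 569 CPM in WT cells and 2807, 1429, and 205 CPM in Lat-/- cells (0.67 ± 0.63, adjusted p = 0.39). Dnajb1 had 268, 232, and 239.9 CPM in WT cells and 615, 373, and 226 CPM in Lat-/- cells (0.71 ± 0.25, adjusted p = 0.024). Without the samples numbered 3 at 0 h, 4 h, and 20 h, Hspa1a (1.81, adjusted p = 9.0e-04) and its near-identical neighbor Hspa1b (1.91, adjusted p = 9.3e-04) were called higher. Without the Lat-/- replicate 3 alone, 4 of the 20 chaperone genes tested were called higher, against none with all libraries. Jun, described above, followed the same order within the Lat-/- samples. Of these 20 genes, 3 that serve the endoplasmic reticulum, the mitochondria, and protein folding in the cytosol, namely Hspa5 (-1.66), Hspa9 (-1.42), and Cct3 (-1.22), were lower, near the 12.0% of all tested genes.

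Genes were then ranked by size of the change. The order came from the fit over genes with at least 1 read. The ranking took called protein-coding genes that averaged 50 counts or more and whose CPM did not overlap between the groups. The 12 genes that were higher by the most included 8 of the interferon-inducible GTPase and oligoadenylate synthetase families. These were Iigp1 (3.57), Gbp5 (3.26), Tgtp1 (3.23), Gbp2, Oasl2 (3.14), Gbp6 (3.07), Igtp (3.01), and Irgm2 (2.95). Igtp and Irgm2 overlap in the genome, and Tgtp1 and Gbp6 have near-identical copies, so reads of these 4 can be divided between neighbors. Ifng, at rank 10, was among the 12 too. The other 3 were Slc16a5, a gene of the monocarboxylate transporter family, with 1.87, 1.97, and 2.49 CPM in WT cells and 23.1, 24.4, and 28.7 CPM in Lat-/- cells (3.57 ± 0.18, adjusted p = 2.4e-10), Prss12, a serine protease gene, with 1.12, 1.37, and 3.77 CPM in WT cells and 15.6, 17.1, and 24.5 CPM in Lat-/- cells (3.15 ± 0.31, adjusted p = 2.4e-07), and Myo6, an unconventional myosin gene, with 3.69, 3.25, and 12.0 CPM in WT cells and 46.8, 28.1, and 87.9 CPM in Lat-/- cells (3.08 ± 0.45, adjusted p = 1.9e-05). Slc16a5 and Prss12 were higher at 0 h already, by 1.21 ± 0.15 and 1.77 ± 0.30.

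The 12 genes that were lower by the most, chosen in the same way, were led by Hbegf and Lat and included Tnfsf14, Il2, and Xcl1. Mcam, which encodes the adhesion molecule CD146, had 6.26, 6.96, and 7.36 CPM in WT cells and 0.207, 0.117, and 0.312 CPM in Lat-/- cells (-4.97 ± 0.61, adjusted p = 2.6e-06). Fam83g had 33.2, 25.6, and 17.4 CPM in WT cells and 0.828, 1.35, and 1.14 CPM in Lat-/- cells (-4.53 ± 0.43, adjusted p = 1.3e-07) and Utf1, a transcription factor gene of early embryonic cells, had 11.9, 11.0, and 8.86 CPM in WT cells and 0.372, 0.235, and 0.676 CPM in Lat-/- cells (-4.60 ± 0.66, adjusted p = 1.4e-05). Bdh2 (-4.82), Dnph1 (-4.52), Ak7 (-4.41), and Cst6 (-4.38) completed the group. In WT cells the 4 h means of Mcam, Fam83g, Utf1, and Bdh2 were 6.86, 25.4, 10.6, and 16.8 CPM, against 0.427, 0.655, 0.308, and 0.0117 CPM at 0 h.

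The contrast at 4 h was then set beside those at 0 h and 20 h, which use other libraries. At 0 h, 17 genes were higher (0.122%) and 83 lower (0.596%) in Lat-/- cells. Of the 1484 genes higher at 4 h, 15 were higher and 2 lower at 0 h, and of the 1671 genes lower at 4 h, 57 were lower and none higher. The difference between the 4 h and the 0 h contrast was called for 1164 genes toward higher (8.36%) and 1166 toward lower (8.37%) values in Lat-/- cells. Among genes whose Lat-/- deficit was present at 0 h and not called at 4 h, Ptgir, a prostacyclin receptor gene, had a log2 fold change of -2.27 ± 0.26 at 0 h and -0.07 ± 0.24 at 4 h, with 4 h levels of 8.83, 9.81, and 11.2 CPM in WT cells and 9.44, 10.1, and 9.00 CPM in Lat-/- cells.

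At 20 h, 3130 genes were higher (22.5%) and 3191 lower (22.9%). Of the genes higher at 4 h, 1029 (69.3%) were also higher at 20 h, 68 were lower, and 387 were not called. Of the genes lower at 4 h, 1169 (70.0%) were lower at 20 h, 44 were higher, and 458 were not called. The difference between the 4 h and the 20 h contrast, as 4 h minus 20 h, was called toward higher values for 1505 genes (10.8%) and toward lower values for 1899 (13.6%).

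Genes that changed sides between 4 h and 20 h included factors of helper cell differentiation and costimulation. Bcl6 was lower at 4 h (-1.27 ± 0.19), at 266, 282, and 206 CPM in WT cells and 118, 84.1, and 111 CPM in Lat-/- cells, and higher at 20 h (2.89 ± 0.20). Runx1 (-1.38 ± 0.16 and 1.58 ± 0.16), Cd27 (-1.48 ± 0.12 and 1.07 ± 0.12), Vsir, which encodes the inhibitory receptor VISTA (-1.57 ± 0.13 and 1.40 ± 0.13), Ptpn22 (-1.69 ± 0.12 and 1.03 ± 0.12), and Zfp36, a factor that degrades cytokine mRNA (-1.31 ± 0.16 and 1.29 ± 0.16), went the same way. The opposite course was taken by Ccne1 (2.12 ± 0.31 and -3.53 ± 0.25), Scd2 (1.14 ± 0.21 and -2.70 ± 0.22), Cd226 (1.14 ± 0.22 and -1.70 ± 0.22), and Bcl3 (1.21 ± 0.22 and -1.39 ± 0.23). The 4 h calls of Scd2 and Cd226 were lost without WT replicate 1 (0.98 and 0.92) and that of Scd2 without Lat-/- replicate 2 (0.98). These 10 genes were chosen for opposite calls at the 2 times, so the difference between the contrasts is a description.

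**Figure D5:**
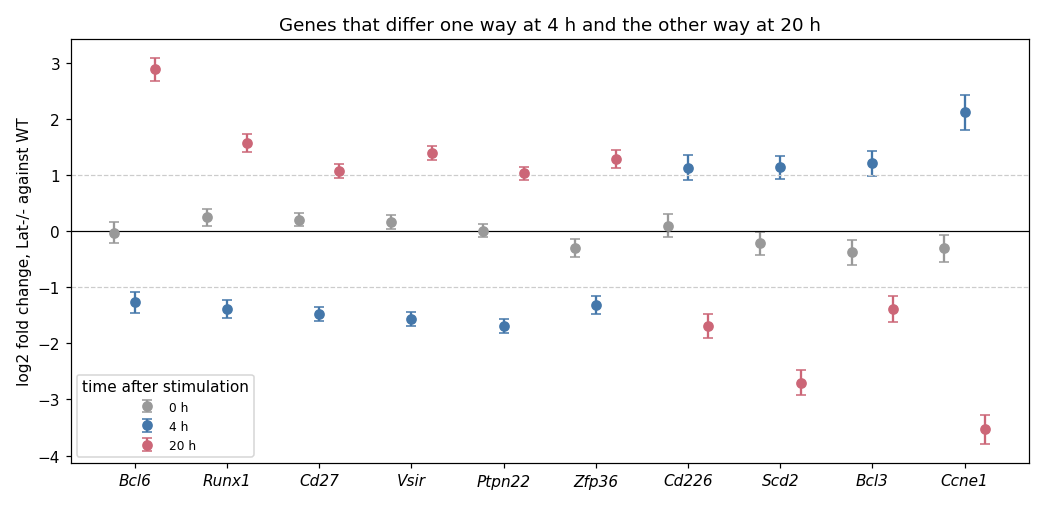
Log2 fold change of Lat-/- against WT cells (y axis) at 0 h (gray), 4 h (blue), and 20 h (red) for 10 genes (x axis) called in opposite directions at 4 h and 20 h. Points are estimates from edgeR and bars are SE, with 3 samples per genotype and time. Bcl6, Runx1, Cd27, Vsir, Ptpn22, and Zfp36 lie below 0 at 4 h and above 0 at 20 h, and Cd226, Scd2, Bcl3, and Ccne1 the other way.

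Several groups named above moved alike at both times. NR4A and EGR genes called lower at 4 h were all lower at 20 h, for example Nr4a1 (-3.24 ± 0.54) and Egr2 (-2.68 ± 0.58), and so were Il2 (-4.57 ± 0.50), Tnf (-3.42 ± 0.45), Myc (-2.83 ± 0.17), and Pdcd1 (-3.37 ± 0.42). Klf2 (4.51 ± 0.34), S1pr1 (5.33 ± 0.25), and Il7r (6.47 ± 0.37) were higher at both. Cd40lg (0.48 ± 0.12), Fasl (0.61 ± 0.15), Zap70 (-1.04 ± 0.15), and Fosl2 (-0.71 ± 0.24), lower at 4 h, had these values at 20 h, of which only that of Zap70 was called.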

How the data were processed

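RNA of the LAT experiment (18 samples, 6 of them compared here) was analyzed from the count table of that experiment. Per the study's methods and the labels, the authors prepared stranded mRNA libraries, made reads with bcl2fastq 2.17.1.14 (submitters' processing notes), mapped single reads to GRCm38 with STAR, and deposited raw counts per gene from featureCounts. The annotation release, the treatment of reads that match several genes, and the use of strand in counting are not given in the sources used here, so overlapping, antisense, and duplicated genes are uncertain. Identifiers were named from GENCODE, and 55144 of 55385 matched.

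Counts were fitted with edgeR 4.0.16 in R 4.3.3 (limma 3.58.1, TMM factors, 1 coefficient per genotype and time, quasi-likelihood test, Benjamini-Hochberg adjustment) over genes with at least 1 read in the 18 libraries, as in the study's methods, with thresholds of fold 2 and adjusted p 0.05. The prior degrees of freedom of that fit were infinite. Values of single genes and lists were therefore taken from the fit with edgeR's filterByExpr, where they were 6.46 beside 12 residual ones. For the activation score, log2 CPM were computed with 2 as prior count. Promoters came from RefSeq (GRCm38.p6), and 9618 of the tested genes matched. In simulated counts for the 4 h comparison, edgeR called 100 of 100 genes changed 4-fold and 98 of 100 changed 3-fold, with 5 unchanged genes. DESeq2 called 100 and 99 of them, with 13 unchanged genes. Apart from the changed genes, all groups had the same mean there. The simulation therefore held no library apart from its group, as WT replicate 3 was, and far fewer changes than were called here.

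The members, gene lists, and tests were chosen with earlier results of these data known. Named genes were the targeted gene, the members of the 33 gene lists and 9 marker lists, and genes of largest difference between times. Up to 12 genes per direction were added by fold change. These were called protein-coding genes that averaged 50 counts or more, without overlap of CPM between the groups. Genes printed from the lists are examples. Alternatives were DESeq2 1.42.0, RLE factors, library totals, filterByExpr, the replicate block, fits without each library, fits of the groups compared alone, adjusted p alone, and other settings of the score. Single-library fits and the block with filterByExpr, and fits without the libraries numbered 3, were added after seeing the data. Same-numbered WT and Lat-/- samples at 4 h were checked for shared deviations. All per-sample columns were mapped, and 0 were left unused. Floors cover counting error only. Because the labels say no more than biological replicates, p values measure the spread between these samples. Some genes of the lists are counted but not reported singly here.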

Additional observations from a re-analysis of the deposited data

Results flagged for a closer look

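The contrast of Lat-/- against WT cells at 4 h differed from that at 0 h in 2421 genes and from that at 20 h in 3582 genes, by a test of the difference itself with edgeR over genes with at least 1 read. Among the named genes, 10 were called in opposite directions at 4 h and 20 h. The difference of the log2 fold changes, 4 h minus 20 h, was -4.16 for Bcl6, -2.97 for Vsir, -2.96 for Runx1, -2.72 for Ptpn22, -2.60 for Zfp36, and -2.55 for Cd27, all lower in Lat-/- cells at 4 h and higher at 20 h. It was 5.65 for Ccne1, 3.84 for Scd2, 2.83 for Cd226, and 2.60 for Bcl3, which were higher at 4 h and lower at 20 h. These 10 genes were chosen for opposite calls, which fixes that the contrasts differ. No formal outlier test was applied to groups of 3 samples.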

How the results depend on the processing

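The counts of genes called at 4 h stayed within 1.5 times of the reported 1532 higher and 1730 lower under every alternative run but adjusted p alone, which gave 3303 and 3325, and DESeq2 gave 1508 and 1674. Leaving out single libraries gave 1117 to 2094 genes higher and 1458 to 1810 lower. The difference of the 4 h from the 0 h contrast covered 2421 genes, 4169 by adjusted p alone, and 1844 to 3191 without single libraries. For the 20 h contrast it covered 3582 and 5436 genes, and 3169 to 3579 without single libraries. The 267 genes called at 0 h were 100 with filterByExpr, 118 with filterByExpr and the replicate block, 94 with filterByExpr and without the libraries numbered 3, 177 with DESeq2, 443 by adjusted p alone, and 94 to 278 without single libraries, so this count depends on the treatment of low counts. The log2 fold change of Lat was -5.62 to -5.06 and the activation score 35.5% to 40.1% without single libraries. Lat was at -5.73 without the libraries numbered 3 at 0 h, 4 h, and 20 h, and the score was 52.0% with 500 genes in each direction. For 362 genes, 7203 values under the alternatives were set against the calls of the fit over genes with at least 1 read. Of these, 6990 kept the call or its absence, 135 lost the call, 78 gained it, and 0 reversed. The direction of genes called in neither fit was not compared. The calls of single genes printed above come from the filterByExpr fit, and the losses named with them refer to that fit.

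With the replicate block, 1539 genes were higher and 1738 lower (1498 and 1679 with filterByExpr). The pairing could not be taken from the data, since deviations of same-numbered WT and Lat-/- samples at 4 h correlated by 0.10, 0.01, and 0.29, and not every sample correlated best with its own number. Genes with few reads, such as Ifng, Il3, and Csf2, are limited by depth.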
